A study of Homo sapiens with 3 samples.

Results

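The zinc finger genes of human chromosome 19 were followed through an RNA pull-down experiment. They were taken as the protein-coding genes of GENCODE 29 on that chromosome whose symbol is ZNF and a number. Of 240 such genes, 239 had at least 1 transcript in the deposited tables, among 52992 genes with a transcript there. A gene counted as measured with a mean of at least 10 estimated counts over the libraries, which held for 198 of the 239, among 14082 measured genes in all. Of the other 41, 13 had no count in any library, and the 41 together held 102 counts for wild type, 100 for the mutant and 125 for GST.

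The RNA came from J82, an established cell line of a human bladder carcinoma grown close to confluence. Its lysate was incubated with a bait protein, and the RNA bound to it was sequenced on a BGISEQ-500. The baits were wild-type ZFP36L1 fused to glutathione S-transferase (GST), an alanine mutant of ZFP36L1 (called Ala in the labels, which do not give the residues) fused to GST, and GST alone. ZFP36L1 is a zinc finger protein of another kind, with CCCH fingers, that promotes decay of mRNAs whose 3' untranslated region (3' UTR) holds AU-rich elements; its core site is UAUUUAU. There was 1 library for each of the 3 baits, so the spread between replicates is unknown and no p-value is given. All libraries carry the RNA of the same cell line, and no library of the lysate itself was analysed here, so a member's level in the cells and its share of the bound RNA cannot be told apart.

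The libraries held 19845386 estimated counts for wild type, 19153483 for the mutant and 19137867 for GST. Mitochondrial genes had 15.5% of the gene counts for wild type, 7.53% for the mutant and 10.6% for GST. The deposited table of GST carries another run code than those of wild type and mutant, so run and bait cannot be told apart in comparisons with GST. The epithelial keratins KRT7, KRT8 and KRT18 were present in every library, while KRT5, KRT19 and UPK3A were at 0 in all of them. KRT7 had 165 counts for wild type, 3186 for the mutant and 1669 for GST. Of the other epithelial and urothelial markers, CDH1 (4, 13 and 7) and GATA3 (2, 1 and 2) were low, and PPARG had 2552, 553 and 416. Of the mesenchymal markers, VIM had 2581, 29118 and 41484 counts and ZEB1 960, 263 and 499, while SNAI2 had 8, 7 and 7. Markers of leukocytes summed to 16, 34 and 35 counts for wild type, mutant and GST.

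A zinc finger of the C2H2 type is a short fold that holds a zinc ion between a pair of cysteines and a pair of histidines and touches a few bases of DNA. Many of these genes arose by tandem duplication and sit in clusters along chromosome 19, and a large share of them join an array of fingers to a KRAB domain. The KRAB domain binds TRIM28 (KAP1), which brings in the histone methyltransferase SETDB1 and heterochromatin proteins, and many KRAB zinc finger proteins are known to silence transposable elements. Their mRNAs are known for low abundance and short half-lives.

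The mRNAs of these genes are built of repeated finger codons, and their base composition varied widely, which is why the following fingers are shown. Each line gives the second finger found in the longest annotated coding sequence, read 5′ to 3′ on the gene's strand, with the cysteine and histidine codons in capitals. The first 4 come from members whose highest library was wild type, and the last 4 from members at least 11.7-fold lower in wild type than in GST. All stand on GRCh38.
ZNF709, chr19:12465436-12465498, minus strand: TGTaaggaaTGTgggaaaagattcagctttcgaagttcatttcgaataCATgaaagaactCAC
ZNF100, chr19:21727547-21727609, minus strand: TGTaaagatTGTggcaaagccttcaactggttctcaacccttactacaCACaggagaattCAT
ZNF91, chr19:23362115-23362177, minus strand: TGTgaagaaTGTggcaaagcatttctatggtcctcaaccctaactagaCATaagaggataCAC
ZNF260, chr19:36515008-36515070, minus strand: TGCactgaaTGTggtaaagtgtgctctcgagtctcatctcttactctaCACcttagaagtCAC
ZNF579, chr19:55579358-55579420, minus strand: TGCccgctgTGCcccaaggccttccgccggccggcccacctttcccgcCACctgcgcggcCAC
ZNF865, chr19:55614378-55614440, plus strand: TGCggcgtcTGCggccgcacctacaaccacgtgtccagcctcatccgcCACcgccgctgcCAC
ZNF580, chr19:55642872-55642934, plus strand: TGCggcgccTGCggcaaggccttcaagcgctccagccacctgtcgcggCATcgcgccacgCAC
ZNF444, chr19:56159842-56159904, plus strand: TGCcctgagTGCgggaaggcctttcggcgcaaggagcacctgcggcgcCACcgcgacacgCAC
The first 4 of these fingers have a GC content of 36.5% to 44.4%, and the last 4 one of 71.4% to 77.8%. All encode the same spacing of cysteines and histidines.

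The most frequent run of 15 bases in the measured members' coding sequences was TCATACTGGAGAGAA, found 350 times in 81 of the 198 members (40.9%). In 346 of the 350 places it lies in the frame whose codons are CAT, ACT, GGA and GAG, the start of the conserved linker that joins neighbouring C2H2 fingers. It occurs in 32 of 196 measured ZNF genes of other chromosomes (16.3%) and in 128 of 11711 measured genes with a complete coding sequence (1.09%). ZNF845 holds it 18 times. The run was found by a search of the sequences and uses no measured ratio.

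The members held 34923 estimated counts for wild type, 29072 for the mutant and 30186 for GST, which is 0.183%, 0.158% and 0.164% of the counts joined to genes. They were low mRNAs: the median measured member had 95, 76 and 90 counts, and its mean abundance over the libraries was 1.61 TPM, against 5.42 TPM for the median of all measured genes (TPM is scaled for transcript length). The 8 members with the most counts held 18.3% of the members' counts for wild type, 26.8% for the mutant and 25.8% for GST. At these depths the 95% interval of the wild type over GST ratio reached, for the median member, 0.44 to either side on the log2 scale. Intervals here are exact Clopper-Pearson intervals on the split of the counts of 2 libraries and cover counting error only. The members nearest to the minimum show what passed it: ZNF43 had 10 counts in every library, ZNF426 had 5 for wild type, 11 for the mutant and 16 for GST, and ZNF837 had 0, 24 and 10. Just under it, ZNF737 had 12, 8 and 8, ZNF224 had 2, 8 and 18, and ZNF154 had 8, 12 and 4.

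The 8 members named as highest stood 3.55-fold to 6.79-fold above GST in the wild-type library, and the 8 named as lowest at least 12.6-fold under it. A member was called higher or lower when its scaled counts differed at least 2-fold and the interval excluded 1. In wild type over GST, 45 of the 198 measured members were higher (22.7%), where 25.5% of all measured genes were, and 47 were lower (23.7%), where 34.2% of all genes were. The median log2 ratio of the members was 0.14, which is 0.17 above the median of all genes, and the quartiles were −0.97 and 0.88. Once the part of the ratio that a cubic fit over all genes gives to GC content and length of the transcript was subtracted, the order turned round: the members' median was 0.50 below that of all genes (−0.50), with 13 members higher and 72 lower. Of all genes, 17.0% were then higher and 26.8% lower.

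The mutant library was close to GST, with few calls in either direction: 13 members were higher (6.57%), where 9% of all genes were, and 14 were lower (7.07%), where 5.13% were. The median was −0.02, with quartiles of −0.47 and 0.28.

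Wild type over mutant gave the widest spread of the 3 comparisons: 59 members were higher (29.8%), where 30.1% of all genes were, and 44 were lower (22.2%), where 36.1% were. The median was 0.35, which is 0.39 above that of all genes, and after the same fit it was −0.62 relative to all genes. Wild type had the highest scaled level of the 3 libraries for 104 members (52.5%, against 45.1% of all genes) and the lowest for 76 (38.4%, against 46.2%). The comparisons share libraries and are therefore not independent of each other.

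The other genes of chromosome 19 had lower ratios than its ZNF genes in this comparison. Of 723 other measured protein-coding genes of chromosome 19, 51 were higher (7.05%) and 511 lower (70.7%) in wild type over GST, with a median of −2.41. The same 723 genes had a median of 0.52 in mutant over GST, with 157 higher and 10 lower. The median transcript GC content was 42.5% for the measured members, 60.0% for those other genes of chromosome 19 and 47.9% for all measured genes. The 196 measured ZNF genes of other chromosomes had a median of 0.14 in wild type over GST, with 38 higher and 46 lower, at a transcript GC content of 46.4%.

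**Figure D1:**
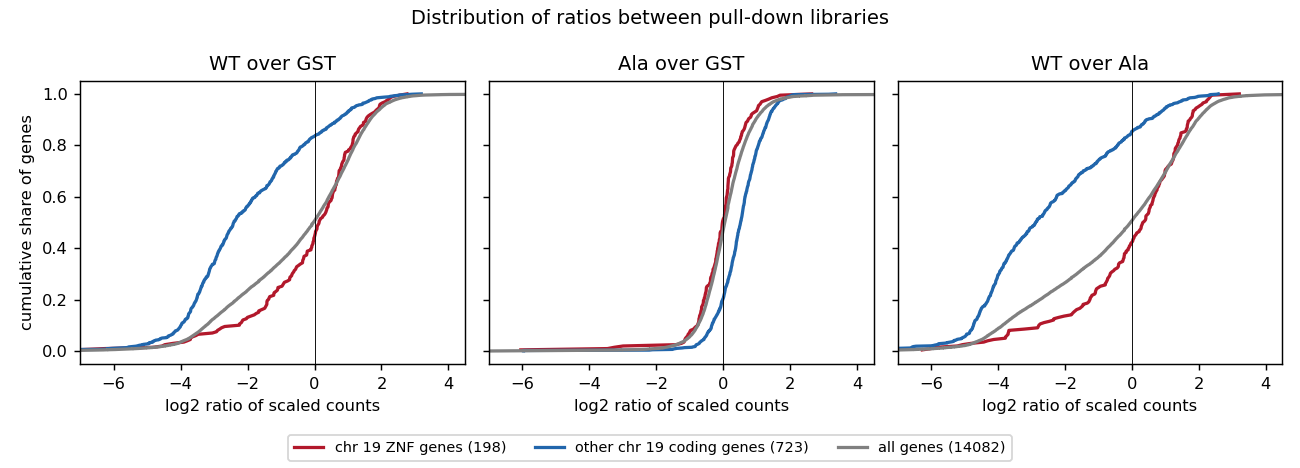
Cumulative share of genes (y axis) by log2 ratio of TMM-scaled counts (x axis) for the 198 measured ZNF genes of chromosome 19, the 723 other measured protein-coding genes of that chromosome and all 14082 measured genes, in wild type over GST, Ala mutant over GST and wild type over mutant. The other genes of chromosome 19 lie far to the left in both comparisons with wild type on top (medians −2.41 and −2.87), while the ZNF genes cross the middle at 0.14 and 0.35.

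ZNF260 was the member with the most counts among those high in the wild-type pull-down. It is a finger-only protein whose rodent counterpart is known as a regulator of cardiac genes. ZNF260 had 1574 estimated counts for wild type, 420 for the mutant and 419 for GST. The mutant and GST libraries were level with each other, and wild type was 3.55-fold above GST (log2 1.83, interval 1.67 to 1.99).

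ZNF714 had 610 counts for wild type, 56 for the mutant and 99 for GST. It gave the highest ratio of the 198 measured members in wild type over mutant, 9.26-fold (log2 3.21, interval 2.83 to 3.64), and was 5.80-fold higher in wild type over GST. Almost all of its counts, 606 for wild type, 52.9 for the mutant and 96.3 for GST, stood on a single transcript of 898 bases annotated as a processed transcript without a coding sequence.

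ZNF709 had 190 counts for wild type, 37 for the mutant and 26 for GST, a ratio of 6.79 in wild type over GST (log2 2.76, interval 2.19 to 3.44). Of its 31-mers (runs of 31 bases), 78.6% also occur in transcripts of other genes, so its counts may be split with them and are uncertain. The same holds for ZNF177, with 152, 41 and 28 counts and 88.4% of its 31-mers shared. ZNF222 had 334 counts for wild type, 89 for the mutant and 67 for GST. ZNF772 had 569, 95 and 140, ZNF611 had 226, 41 and 49, and ZNF28 had 444, 149 and 103. For each of these wild type was the highest library, and the log2 ratios of wild type over GST ran from 1.94 to 2.34. In ZNF28, 212 counts for wild type, 37.4 for the mutant and 13.4 for GST fell on a processed transcript of only 228 bases.

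The order of the mutant and GST libraries differed between the members high in wild type. ZNF175 (OTK18), known to suppress HIV in macrophages, had 717 counts for wild type, 120 for the mutant and 261 for GST. ZNF100 had 792, 143 and 258, and ZNF420 (APAK), an inhibitor of p53-dependent apoptosis, had 429, 75 and 128. In ZNF175, ZNF100 and ZNF420 the mutant was the lowest library, at log2 ratios to GST of −0.98, −0.71 and −0.63, but with the fit ZNF100 was at 0.05. ZNF551 had 206, 35 and 86 counts, and its mutant library lay 2.21-fold under GST. ZNF507 had 466, 93 and 113 counts, with mutant and GST not separated beyond counting error (log2 −0.14, interval −0.55 to 0.27).

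ZNF274 went another way. It encodes a KRAB protein that recruits SETDB1 to the 3' ends of other zinc finger genes. It had 98 counts for wild type, 57 for the mutant and 19 for GST, so wild type and mutant both stood above GST, 4.77-fold and 3.25-fold. Between wild type and mutant the difference was 1.47-fold (log2 0.55, interval 0.07 to 1.06).

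Several of the members lowest in the wild-type pull-down had over 1000 counts in the mutant and GST libraries. ZNF444, which carries a SCAN domain and no KRAB domain, had 76 counts for wild type, 1148 for the mutant and 1354 for GST. That is 18.7-fold lower in wild type than in GST (log2 −4.23, interval −4.59 to −3.90). ZNF428 had 92, 2222 and 1143 counts, and here the mutant was also 2.14-fold above GST (log2 1.10).

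ZNF580 had 95 counts for wild type, 1119 for the mutant and 1132 for GST. ZNF865 had 94, 1049 and 1044, and ZNF574 had 65, 717 and 810. In ZNF580, ZNF865 and ZNF574 the mutant and GST libraries lay within 1.11-fold of each other, and wild type was 11.7-fold to 13.1-fold lower than GST. With the fit, mutant over GST was −0.78 for ZNF580 and −0.75 for ZNF865.

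ZNF579 had 23, 747 and 520 counts, ZNF526 had 21, 396 and 304, and ZNF628 had 10, 301 and 138. ZNF581 had 101 counts for wild type, 1128 for the mutant and 616 for GST, with the mutant 2.02-fold above GST. ZNF414 had 4, 296 and 119, a log2 ratio of −4.81 in wild type over GST with a wide interval of −6.88 to −3.58.

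For 3 members the wild-type library was at 0, and the fold is given with 3 counts put in place of 0. Such a fold is not a limit set by counting error, and the intervals of ZNF358 and ZNF823 allow smaller ones. ZNF358 had 0, 27 and 67 counts and was 23.6-fold lower in wild type than in GST on this basis. Its interval reached up to −4.23 on the log2 scale. ZNF823 had 0 for wild type, 0 for the mutant and 36 for GST, 12.7-fold and 10.9-fold lower than GST. Its intervals reached up to −3.29 for wild type over GST and −3.07 for mutant over GST. ZNF837, with 0, 24 and 10, was 3.53-fold lower in wild type than in GST on the same basis.

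**Figure D2:**
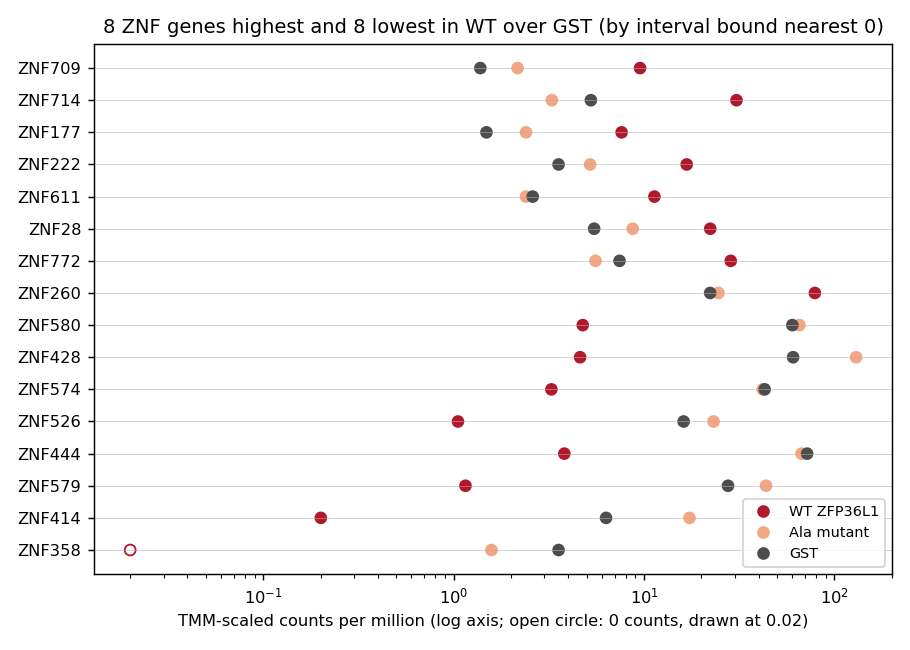
TMM-scaled CPM (x axis, log scale) in the wild-type, Ala mutant and GST libraries for the 8 ZNF genes highest and the 8 lowest in wild type over GST, ranked by the interval bound nearest to 0 and ordered by their log2 ratio. An open circle marks a library at 0 counts. In the upper 8 the wild-type point is the rightmost, from 1574 counts in ZNF260 to 152 in ZNF177. In the lower 8 it is the leftmost, from 95 counts in ZNF580 to 0 in ZNF358.

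Fewer of these extremes were called with the fit on GC content and length. The core site of ZFP36L1 is itself AU-rich, so the fit does not separate it from base composition. After the fit on transcript GC content and length was subtracted, 4 of the 8 highest members of wild type over GST were still called, ZNF177, ZNF222, ZNF709 and ZNF714, and ZNF260 was at 0.37. Of the 8 lowest, 6 were still called, and ZNF428 (−0.99) and ZNF580 (−0.96) were not. In wild type over mutant, 3 of the 8 highest were still called, ZNF175, ZNF551 and ZNF714, and 5 of the 8 lowest; ZNF100, ZNF260 and ZNF28 then stood under 0, at −0.028, −0.40 and −0.51. Of the 5 highest members of mutant over GST, ZNF114 and ZNF274 were still called, and all 5 of the lowest were.

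The measured members also include well studied repressors of transposable elements, and a pair of them had opposite orders. ZNF91, a KRAB protein that represses SVA elements, had 304 counts for wild type, 111 for the mutant and 154 for GST. Wild type was the highest library, 1.86-fold above GST (log2 0.90, interval 0.61 to 1.19) and 2.34-fold above the mutant. ZNF93, in the same cluster and a repressor of LINE-1 elements, had 136, 333 and 330 counts. Here wild type was the lowest library, 2.56-fold under GST (log2 −1.36, interval −1.66 to −1.07), and mutant and GST were level.

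ZNF146 (OZF), a protein made almost only of fingers and overexpressed in several carcinomas, had the most counts of all members: 2299 for wild type, 827 for the mutant and 1427 for GST. Wild type lay 1.52-fold above GST and 2.38-fold above the mutant, and both directions turned with the fit, to −0.67 and −0.53 on the log2 scale. The next by mean count was ZNF428, then ZNF444.

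ZNF473 (ZFP100), a part of the U7 snRNP that processes histone pre-mRNA, had 102 counts for wild type, 241 for the mutant and 169 for GST. The mutant was the highest library and wild type the lowest, 2.75-fold apart. ZNF568, whose mouse counterpart represses a placental promoter of Igf2, had 140, 60 and 75.

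ZNF331, an imprinted gene, had 329 counts for wild type, 232 for the mutant and 211 for GST, with wild type 1.47-fold above GST and 1.21-fold above the mutant. With the fit, both directions turned, to −0.44 over GST and −1.07 over the mutant, the second of which was called lower. ZNF350 (ZBRK1), a partner of BRCA1, had 80, 57 and 74, and none of its 3 ratios differed beyond counting error. ZNF675 (TIZ), an inhibitor of TRAF6 signalling, had 61, 69 and 108 and was 1.87-fold lower in wild type than in GST.

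Between mutant and GST the members with the largest ratios had low counts. ZNF114 had 2 counts for wild type, 42 for the mutant and 7 for GST, 6.25-fold higher in the mutant than in GST. ZNF254 had 26, 10 and 110, 9.55-fold lower in the mutant than in GST. ZNF625 had 21, 4 and 54, and 84.1% of its 31-mers occur in other genes. ZNF492 had 5, 4 and 39, and ZNF606 had 75, 20 and 60. In ZNF254, ZNF625 and ZNF492 both ZFP36L1 libraries lay under GST, and in ZNF606 only the mutant did, 2.68-fold. The members called higher in mutant over GST with more than 100 mean counts were ZNF414, ZNF428, ZNF581, ZNF628 and ZNF653. All 5 were lower in wild type over GST. This selection was made after the values were seen. With the fit, ZNF414 (0.03), ZNF428 (0.20), ZNF581 (0.37) and ZNF628 (0.33) were no longer called in mutant over GST.

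The members' transcript GC content ran from 33.5% to 73.2%, and their ratios were ordered along it. Across the 198 measured members the Spearman correlation of transcript GC content with log2 ratio was −0.39 for wild type over GST, 0.37 for mutant over GST and −0.50 for wild type over mutant. Over all genes it was −0.60, 0.54 and −0.68. These describe genes of the same libraries, which are not independent replicates.

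A cut at 55% GC, chosen after the values were seen, set 20 members apart. All 20 were lower in wild type over GST, with a median of −3.60 (−3.51 with 3 counts put in place of 0 for the 2 genes at 0). Of the same 20, 7 were higher and 1, ZNF358, was lower in mutant over GST, where the median was 0.59. With the fit, 10 of the 20 were lower and 1 higher in wild type over GST, where 26.8% of all genes were lower and 17.0% higher. In mutant over GST, 1 of the 20 was then lower and none higher. Without the fit, of all 3819 measured genes over 55% GC, 71.7% were lower in wild type over GST, with a median of −2.35, and 22.0% were higher in mutant over GST, with a median of 0.53. The other 178 members had a median of 0.37, with 45 higher and 27 lower, where 32.8% and 20.3% of all genes up to 55% GC were. The same 178 had 59 higher (33.1%) and 24 lower (13.5%) in wild type over mutant, where 39.7% and 21.0% of all genes up to 55% GC were. The fit given above does not separate base composition from AU-rich sites, and the part of either in the members' ratios was not tested.

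**Figure D3:**
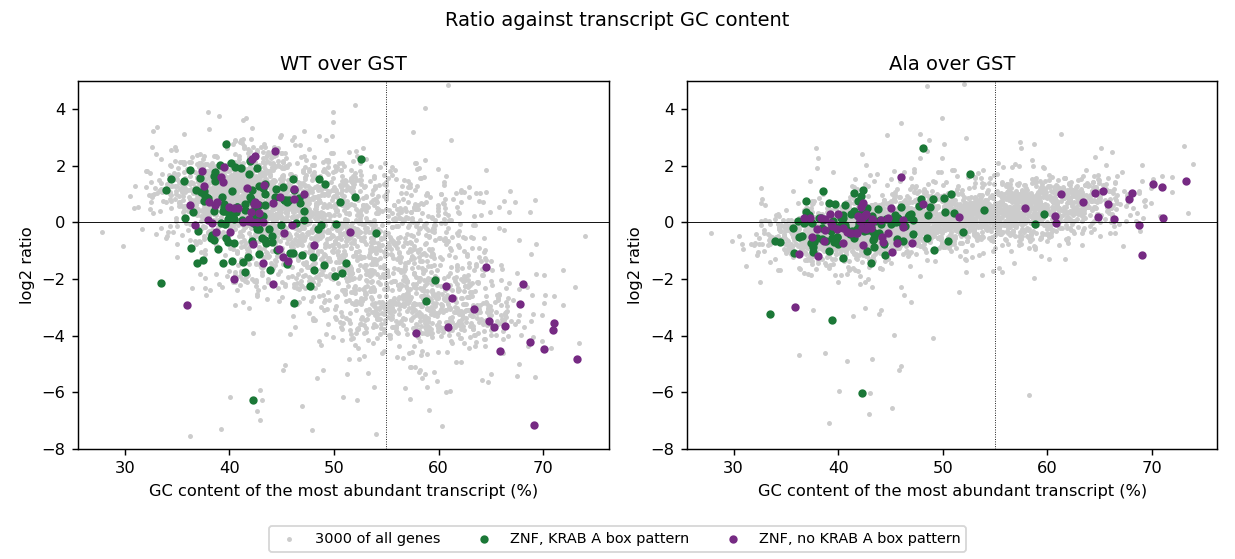
Log2 ratio (y axis) against the GC content of each gene's most abundant transcript in percent (x axis), for wild type over GST and for Ala mutant over GST. Coloured points are the 198 measured ZNF genes with and without a KRAB A box pattern, grey points are a random sample of all measured genes, and the dotted line is at 55%. All 20 ZNF genes right of the line lie below 0 in wild type over GST, and 16 of them lie above 0 in mutant over GST.

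The members were also sorted by protein architecture. The KRAB A box pattern (a run of conserved residues searched on codons) was found in 130 of the 198 measured members, and at least 1 C2H2 finger in 197. The number of fingers ran from 0 in ZNF738, whose annotated coding sequence holds the KRAB pattern alone, to 31 in ZNF91, with a median of 12. Members with the KRAB pattern had a median of 0.34 in wild type over GST, with 33 higher and 24 lower, and those without it −0.01, with 12 higher and 23 lower, where 25.5% of all genes were higher and 34.2% lower. With the fit, those with the pattern had 9 higher and 48 lower (median −0.45 relative to all genes), and those without it 4 and 24 (−0.56). Of all genes, 17.0% were higher and 26.8% lower with the fit. The values that follow are without it. Of the 68 members without the KRAB pattern, 18 had a transcript GC content over 55%, and all 18 were lower. The other 50 had a median of 0.42, with 12 higher and 5 lower. A KRAB box that departs from the pattern is counted as absent.

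Bins by number of fingers were chosen after the values were seen. The 19 members with 0 to 6 fingers had a median of −2.19 in wild type over GST, at a median GC content of 61.3%. Of these 19, 2 were higher (10.5%) and 11 lower (57.9%). The 88 members with 7 to 12 fingers had a median of 0.55, with 24 higher (27.3%) and 18 lower (20.5%). The 91 members with 13 or more had a median of 0.08, with 19 higher (20.9%) and 18 lower (19.8%). Of all measured genes, 25.5% were higher and 34.2% lower, and of those over 55% GC, 5.66% and 71.7%. Finger number was not tested apart from base composition. Across 183 members with an annotated 3' UTR, coding length had a Spearman correlation of 0.02 with wild type over GST. This length is that of the most abundant protein-coding transcript and can be short. In ZNF317 it was 132 bases, where the longest coding sequence has 595 codons. The value therefore does not describe the coding sequences in which fingers were counted. Of the 61 members shortest by it, 14 were higher and 20 lower, against 16 and 13 of the middle 61 and 14 and 8 of the longest 61.

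The AU-rich core site of ZFP36L1 was searched as TATTTAT, on the sense strand, in the 3' UTR of each gene's most abundant protein-coding transcript. Of 183 measured members with such a 3' UTR, 57 held at least 1 site (31.1%), as did 3550 of 11438 measured genes in all (31%). The median 3' UTR had 919 bases in the members and 967 in all genes. The sites of members named above for wild type over GST are shown with 10 bases of context on either side where the 3' UTR reaches that far, the site in capitals, on GRCh38. Of the 5 sites of ZNF611, of which neighbours overlap, the first and the last are given.
ZNF709, chr19:12462793-12462819, minus strand: aattgaagtgTATTTATaataagctag
ZNF709, chr19:12461577-12461603, minus strand: tccaaggtatTATTTATgtaataaaca
ZNF260, chr19:36512975-36513001, minus strand: tgttctcaacTATTTATgaactgtggt
ZNF260, chr19:36512347-36512373, minus strand: tcattcgtgcTATTTATttccttaaac
ZNF222, chr19:44033031-44033055, plus strand: gttatacaTATTTATggagtgtgaa
ZNF611, chr19:52703176-52703202, minus strand: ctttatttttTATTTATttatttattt
ZNF611, chr19:52702901-52702927, minus strand: tagtctttgtTATTTATtgaaaacctt
ZNF772, chr19:57471999-57472025, minus strand: aaactgcacaTATTTATagtgtaccat
Of the 8 members highest in wild type over GST, 5 thus held a site, and of the 7 among the 8 lowest with an annotated 3' UTR none did. A match is a run of letters in an annotated transcript and was not tested as a place of binding.

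Members with a site were more often high in the wild-type pull-down. In wild type over GST, 23 of the 57 with a site were higher and 5 lower, with a median of 0.72. Of the 126 without, 21 were higher and 36 lower, with a median of −0.02. Over all genes, 47.4% with a site were higher and 8.59% lower, at a median of 0.94, and 18.0% without were higher and 44.9% lower, at −0.68. In wild type over mutant, 26 members with a site were higher and 4 lower (median 0.85), against 31 and 35 without (median 0.03). Over all genes, 57.4% with a site were higher and 9.21% lower there, and 21.4% and 46.5% without. Mutant over GST had 3 with a site higher and 5 lower (median −0.09), against 8 and 8 without (median 0.02). Over all genes, 2.31% with a site were higher and 7.61% lower there, and 10.1% and 3.40% without. The members' ratios also differed by 3' UTR length. The 61 members with the shortest 3' UTRs (1 to 551 bases) had a median of −0.55 in wild type over GST, with 14 higher and 26 lower. The middle 61 had 0.42 (12 and 9), and the longest 61 had 0.53 (18 and 6), where 25.5% and 34.2% of all genes were. Holding a site was not tested apart from 3' UTR length.

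Among members with a site, the number of sites gave no single order. Medians in wild type over GST were 0.72 for the 33 members with 1 site, 0.72 for the 13 with 2 and 0.53 for the 11 with 3 or more, and 12, 6 and 5 of them were higher (36.4%, 46.2% and 45.5%). The medians were 0.75, 1.29 and 0.81 in wild type over mutant. Across all 183 members, those without a site included, the Spearman correlation of site number with the wild type over GST ratio was 0.31. Of the 11 with 3 or more, the 5 higher ones were ZNF100, ZNF507, ZNF529, ZNF611 and ZNF649, and 2 were lower. ZNF562, with 6 sites, had 309 counts for wild type, 151 for the mutant and 206 for GST. ZNF766, with 3, had 35, 70 and 112, and ZNF320, with 4, had 94, 161 and 207. ZNF562 was the member with the most sites, and its ratio of wild type over GST was 0.50 on the log2 scale. ZNF766 and ZNF320 were the 2 lower ones. ZNF529, with 3 sites, had 736, 177 and 281 counts, and wild type was its highest library. These members were picked out after their values were seen.

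Among members with a transcript GC content of up to 55%, a split made after the values were seen, the 56 with a site had a median of 0.72 in wild type over GST (23 higher, 4 lower) and the 109 without had 0.10 (21 higher, 19 lower). Their median GC contents were 41.3% and 42.6%. After the fit on transcript GC content and length was subtracted, members with a site lay at −0.09 relative to all genes, with 5 higher and 11 lower of 57, and those without at −0.60, with 8 higher and 52 lower of 126. Of all genes, 17.0% were higher and 26.8% lower after that fit.

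**Figure D4:**
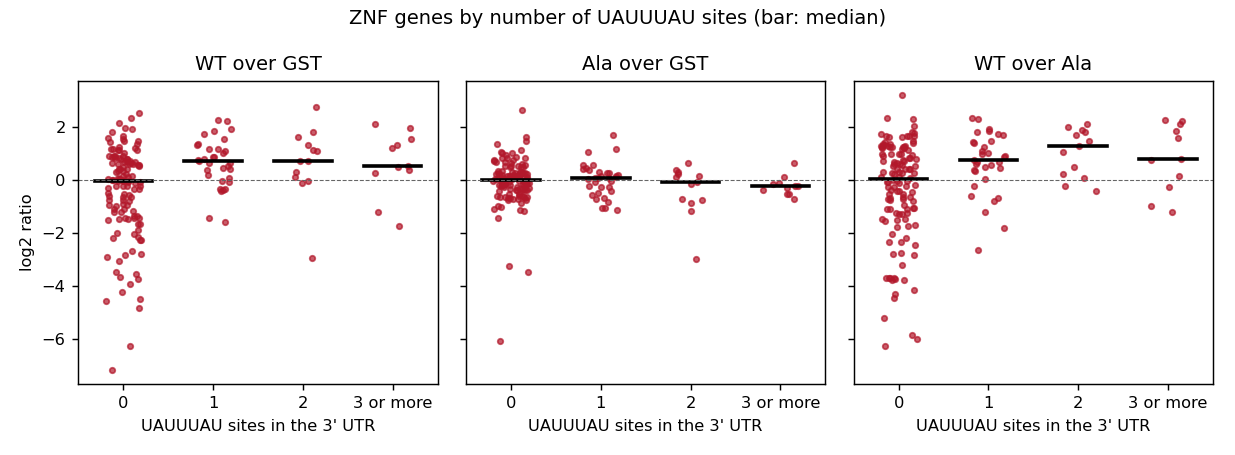
Log2 ratio (y axis) of measured ZNF genes by the number of UAUUUAU sites in the 3' UTR (x axis), in wild type over GST, Ala mutant over GST and wild type over mutant, with 1 point per gene and a bar at the median. In wild type over GST the medians are −0.02 for 126 genes without a site and 0.72, 0.72 and 0.53 for those with 1, 2 and 3 or more. The lowest point in wild type over GST and in mutant over GST stands for a gene with 0 counts in a library. Its place depends on the prior count of 0.5. In wild type over mutant the lowest point is ZNF414, which had 4 counts for wild type and 296 for the mutant.

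Along the chromosome the members fell into 16 clusters, with a new cluster where the gap between neighbouring members exceeded 1 Mb. Of these, 6 are described here, picked after their values were seen. Over all measured genes, 25.5% were higher and 34.2% lower in wild type over GST. The cluster at 19.7 to 24.1 Mb, from ZNF101 to ZNF254, holds the primate-expanded genes around ZNF91. Its 29 measured members summed to 7816 counts for wild type, 3128 for the mutant and 4061 for GST, with 11 higher and 3 lower in wild type over GST and a median of 0.68. The 3 lower ones were ZNF93, ZNF254 and ZNF492.

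The cluster at 36.2 to 37.8 Mb, from ZNF565 to ZNF573, summed to 7111 counts for wild type, 2464 for the mutant and 3494 for GST. None of its 21 measured members was lower in wild type over GST and 5 were higher: ZNF260, ZNF420, ZNF461, ZNF529 and ZNF569. Its median was 0.72 in wild type over GST and 1.20 in wild type over mutant. The median transcript GC content was 38.9% in the cluster around ZNF91 and 38.6% in this one.

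At the far end of the long arm, the cluster at 55.5 to 58.5 Mb, from ZNF628 to ZNF446, ran the other way. It summed to 4938 counts for wild type, 9442 for the mutant and 8707 for GST, with 7 of 43 measured members higher, 19 lower and a median of −0.36. ZNF628, ZNF579, ZNF524, ZNF865, ZNF784, ZNF580, ZNF581 and ZNF444, all over 55% GC, are among its 19 lower members, and ZNF772 and ZNF274 are among its 7 higher ones. The pair ZNF574 and ZNF526 at 42.1 to 42.2 Mb had a median of −3.81. The cluster at 7.07 to 9.79 Mb, from ZNF557 to ZNF846, had 2 of 13 members higher and 7 lower, with a median of −1.09. The cluster at 51.6 to 53.6 Mb, from ZNF175 to ZNF331, had 8 of 33 higher and 5 lower, with a median of 0.32. Median transcript GC content was 46.7% in the cluster from ZNF628 to ZNF446 and 59.4% in the pair ZNF574 and ZNF526. It was 43.9% in the cluster from ZNF557 to ZNF846 and 41.3% in that from ZNF175 to ZNF331. Position was not tested apart from base composition.

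**Figure D5:**
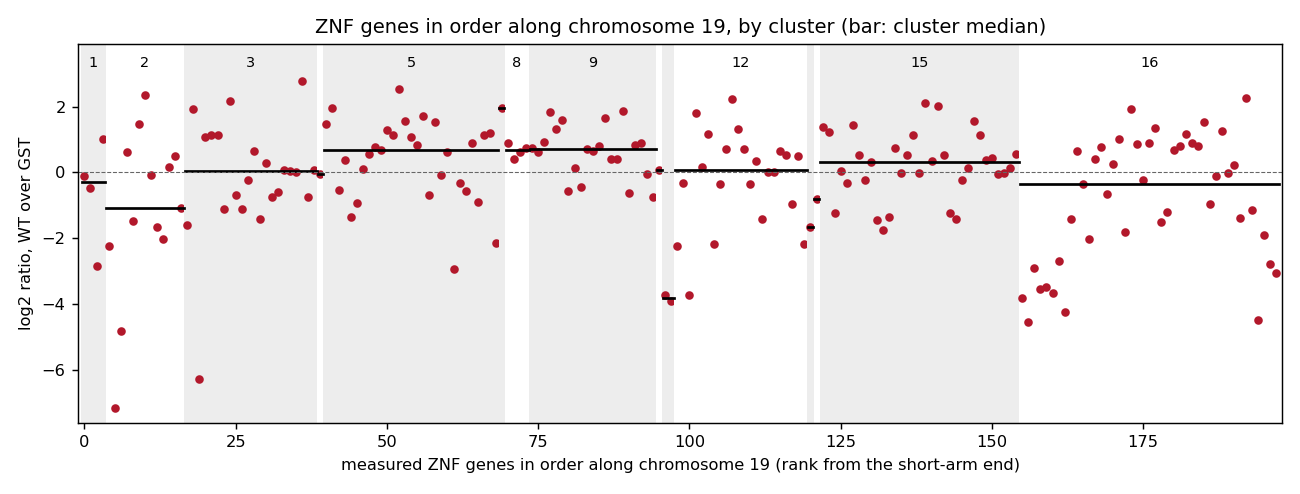
Log2 ratio of wild type over GST (y axis) for the 198 measured ZNF genes in their order along chromosome 19 (x axis, rank), with alternating shading for clusters, a bar at each cluster's median and cluster numbers where at least 4 genes were measured. Clusters 5 and 9, with medians of 0.68 and 0.72, lie mostly above 0, and cluster 16, at −0.36, begins with a run of genes below −2.

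The members' transcripts were mostly of the protein-coding class. Protein-coding transcripts took 87.8% of the members' counts for wild type, 92.4% for the mutant and 91.5% for GST. Processed transcripts without a coding sequence took 7.72%, 2.88% and 3.56%, and without ZNF714, left out after its values were seen, 6.09%, 2.70% and 3.25%. A processed transcript of ZNF101, of 603 bases, held 863 counts for wild type, 90.3 for the mutant and 162 for GST. Without both ZNF101 and ZNF714, the shares were 3.69%, 2.42% and 2.75%. Over all measured protein-coding genes processed transcripts took 5.05%, 6.86% and 6.63%. The wild-type share was the highest of the 3 for the members, largely through these 2 genes, and the lowest for all genes. Transcripts marked for nonsense-mediated decay took 1.71%, 2.24% and 2.63% of the members' counts.

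The mRNAs of the machinery that KRAB proteins recruit were read from a list of 36 genes chosen by role, of which 35 were measured. In wild type over GST, 7 were higher (20%) and 11 lower (31.4%), near the 25.5% and 34.2% of all genes, with a median of −0.15. Mutant over GST had 2 higher and 2 lower (5.71% each), where 9% and 5.13% of all genes were. Wild type over mutant had 6 higher (17.1%) and 13 lower (37.1%), where 30.1% and 36.1% of all genes were. TRIM28, the co-repressor that the KRAB domain binds and itself a gene of chromosome 19, had 857 counts for wild type, 18348 for the mutant and 13038 for GST (log2 −4.01 in wild type over GST and 0.63 in mutant over GST). HDAC1, a histone deacetylase, had 8646, 2556 and 2519 (1.70 and 0.16). CBX3, a heterochromatin protein, had 8033, 3496 and 3164 (1.26 and 0.28), and SUMO2, a ubiquitin-like modifier, had 11569, 3136 and 5383 (1.02 and −0.64). For TRIM28 wild type was the lowest library, and for HDAC1, CBX3 and SUMO2 the highest. GATAD2A and CBX5, also among those of the list with the most counts, were not called in wild type over GST (log2 −0.51 and −0.01).

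Several limits touch single members. The spans of 98 of the 239 genes overlap a gene on the same strand and those of 127 a gene on the opposite strand, and whether the libraries keep the strand is not stated in the labels. The median measured member shares 11.9% of its 31-mers with other genes, and the share reaches 88.4% in ZNF177.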

How the data were processed

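RNA bound to 3 baits in J82 lysate was measured with 1 library per bait. The tools named in the submitters' processing notes are kallisto and DESeq2, and the build is hg19; their versions, settings and annotation were not stated. Per the file headers, the authors deposited estimated counts and TPM for 196354 transcripts per library. These were joined by Ensembl identifier to GENCODE 29 (GRCh38), which matched 181857 (92.6%). Unmatched transcripts held 3.79% of the counts for wild type, 4.20% for the mutant and 3.92% for GST. Estimated counts were summed per gene and rounded. Coordinates are those of GRCh38.

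Libraries were scaled with TMM (edgeR 4.0.16, factors 1.05, 0.933 and 1.03 for wild type, mutant and GST) over genes with a mean of at least 10 counts. Log2 ratios used a prior count of 0.5. Calls needed a 2-fold difference and a 95% Clopper-Pearson interval that excluded 1; the procedure was tested on simulated counts. Transcript GC content and length are those of the transcript with the most counts. Finger and KRAB patterns were planned for proteins; no protein table was used, so they were searched on codons. A fit used cubic terms in GC content and log2 length.

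Members and lists were chosen with earlier results of these data known. Named members are the 8 highest and 8 lowest of each comparison with wild type on top, and 5 and 5 of mutant over GST, ranked by the interval bound nearest to 0, the 8 with the most counts, 3 on either side of the minimum, and members with a described function. Alternatives were other scalings (DESeq2 1.42.0), minimum counts, TPM, transcript choices, symbol rules and shared 31-mers. Sequences come from the GENCODE 29 transcripts.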

Additional observations from a re-analysis of the deposited data

How the results depend on the processing

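No paired analysis was possible because each bait has 1 library, and for the same reason no replicate could be left out. Precision is limited by depth: the median measured member had a mean of 98 counts. Of 99 checks of the counts and medians over members, 79 stayed close to the reported value. A count was close within a fixed fold of the reported count. A median was close when it moved by no more than the median half-width of the members' intervals, 0.44 to 0.47 on the log2 scale. That is wider than the reported relative medians, so a median could change sign and still count as close. Subtracting the fit on transcript GC content and length changed most: wild type over GST then had 13 members higher and 72 lower (17.0% and 26.8% of all genes) and a relative median of −0.50, mutant over GST had 7 lower, and wild type over mutant had 11 higher and 86 lower, and a relative median of −0.62. With it, wild type over mutant was −0.028 for ZNF100, −0.53 for ZNF146, −1.08 for ZNF254, −0.40 for ZNF260 and −0.51 for ZNF28. Without the fit the relative median stayed between 0.16 and 0.42 in wild type over GST. In mutant over GST it was −0.06 as reported, 0.01 with a minimum mean of 100 counts and 0.11 with the fit.

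With a minimum mean of 100 counts, which leaves 98 members, 24 were lower in wild type over GST, 4 higher and 3 lower in mutant over GST, and 37 higher and 24 lower in wild type over mutant. With the deposited TPM and its 139 members, 28 were lower in wild type over GST, 2 higher and 6 lower in mutant over GST, and 25 lower in wild type over mutant. In mutant over GST, 7 were higher with total counts, 6 when the most abundant genes were left out of the totals, and 23 higher and 24 lower with only the most abundant transcript. The checks compared counts, not shares. The settings with 98 and 139 members count among fewer than the 198 measured, so their counts cannot be set directly against those reported. Beyond that, the cause was not tested. Totals without the most abundant genes moved the median of all genes by 0.11 in wild type over GST, −0.21 in mutant over GST and 0.32 in wild type over mutant. Of 1398 checks of named members, 5 called values changed sign, all with the fit, 57 lost a call and 44 gained a call. The symbol rule and the limit on shared 31-mers change which genes are members, not a named member's value. Their checks, 135 for each, could therefore only stay the same. Called or not, the fit turned the sign of 23 of the 135 ratios of named members, 5 in wild type over GST, 9 in mutant over GST and 9 in wild type over mutant.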
